A study of Danio rerio with 4 samples.

Results

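Lysosome enzyme and proton pump genes were followed in hepatocytes of zebrafish larvae that carried a homozygous zc3h8 mutation (zc3h8-/-) and in wild-type hepatocytes, each at 5.5 and at 7.5 days post fertilization (dpf). Members were the genes whose deposited protein description began with "Cathepsin", "V-type proton ATPase" or "Lysosom", which gave 54 of the 33737 genes in the expression table. A mean RPKM (reads scaled to gene length and to library size) of 1 or more over the 4 libraries was met by 44 of the 54 members, and by 11135 genes in all. The 44 were 12 of 15 cathepsins, 18 of 22 proton pump genes, 7 of 8 other lysosomal enzymes and 7 of 9 lysosomal membrane and transport genes. For 10 of the 44 the minimum was met only through the mutant libraries, since the mean fell under it with both mutant values set to 0, and for 1 only through the wild-type libraries, against 29.3% and 19.7% of all tested genes. Just outside that minimum lay the cathepsin L1 gene zgc:174153 at a mean of 0.825 RPKM, and just inside it the pump gene ATP6V0A2 (ENSDARG00000035565) at 1.35 RPKM.

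All 4 groups were of strain ABGO and carried the transgene Tg(lfabp:Dendra2-NTR), in which a liver promoter drives a fluorescent protein fused to a nitroreductase. Dissected livers were dissociated with trypsin, the fluorescent cells were sorted, and their RNA was turned into libraries with the full-length cDNA protocol Smart-seq2. The sources used here do not say whether animals were pooled or whether the mutants came from 1 line. There was 1 library per group, so that no difference within a stage has a replicate check, and counting intervals cover reads alone. Amplified reads without molecular identifiers are not independent molecules.

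Cells take proteins, lipids and worn-out organelles into lysosomes, where acid hydrolases break them down. Cathepsins are the proteases of that compartment, and most of them work best at low pH. The vacuolar proton pump supplies the acid. Its V1 sector sits in the cytosol and splits ATP, and its V0 sector spans the membrane and carries the protons. Hepatocytes hold many lysosomes, and macrophages, which digest what they engulf, are especially rich in cathepsins.

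The libraries held between 29648253 and 36999723 reads counted to genes. The 7.5 dpf wild-type library had the most reads, yet the fewest genes above 0 RPKM, at 9621. The others had 10979 (5.5 dpf mutant), 13137 (5.5 dpf wild type) and 12037 (7.5 dpf mutant). In the 7.5 dpf wild-type library 34.2% of all tested genes had 3 reads or fewer, against 18.6 to 26.2% in the others. Ratios against 0 reads in that library are to be read beside that share. Hepatocyte markers were high in each library, and their sum over 10 genes was 40992 RPKM in mutant and 84573 RPKM in wild-type cells at 5.5 dpf. At 7.5 dpf it was 20017 RPKM in mutant and 75545 RPKM in wild-type cells. No gene in the symbol table used carried the symbol zc3h8, so the genotype labels were not checked by the targeted gene. Of the 44 members at the mean of 1 RPKM, 6 in mutant and 4 in wild-type cells had 3 reads or fewer at 5.5 dpf, as had 4 in mutant and 9 in wild-type cells at 7.5 dpf. Gene symbols are written as the symbol table gives them, and the Ensembl ID is added where several IDs share a symbol.

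Summed over their members, cathepsin and proton pump transcripts did not follow the same course. The 22 proton pump genes summed to 1366 RPKM in mutant and 601 RPKM in wild-type cells at 5.5 dpf. At 7.5 dpf they summed to 1497 RPKM in mutant and 619 RPKM in wild-type cells. The pump sum was thus higher in the mutant library by a similar ratio at both stages, 2.27-fold and 2.42-fold. In that sum ATP6V1F held 39.1% in mutant and 13.9% in wild-type cells at 5.5 dpf, and 18.1% and 13.4% at 7.5 dpf. The ratio of the pump sums without ATP6V1F is not given here. The 15 cathepsins summed to 478 RPKM in mutant and 377 RPKM in wild-type cells at 5.5 dpf, a ratio of 1.27. At 7.5 dpf they summed to 1506 RPKM in mutant and 523 RPKM in wild-type cells, a ratio of 2.88. The summed cathepsin level was far above the others in the 7.5 dpf mutant library alone. The summed pump level was high in both mutant libraries. Gene by gene, the mutant minus wild-type difference (log2, defined below) was larger at 7.5 dpf in 14 of 18 tested pump genes. That also held for 8 of 12 tested cathepsins and for 6174 of 11135 tested genes. Some of these members met the minimum only through the 7.5 dpf mutant library, as listed below. As a ratio, cathepsins stood at 0.35 of the pump in mutant and 0.628 in wild-type cells at 5.5 dpf, and at 1.01 in mutant and 0.844 in wild-type cells at 7.5 dpf.

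**Figure D1:**
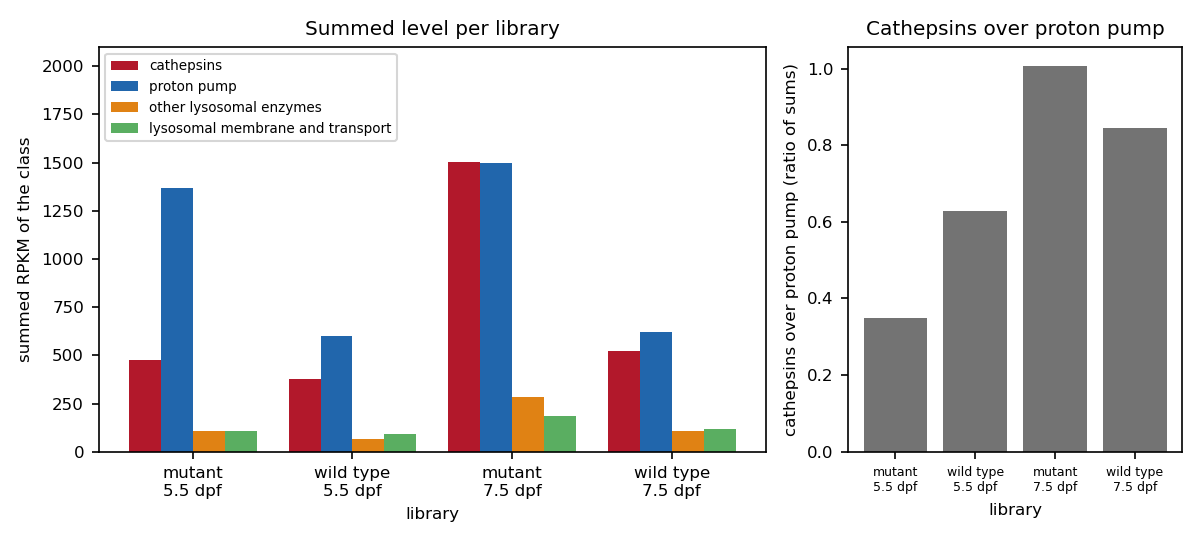
Left, summed RPKM of the 4 classes of lysosome genes in each library, with 1 bar per class and library. Right, the ratio of summed cathepsins to summed proton pump genes in each library. The pump bars stand at 1366 and 1497 RPKM in the mutant libraries, against 601 and 619 RPKM in the wild-type libraries, whereas the cathepsin bar is tall only in the 7.5 dpf mutant library (1506 RPKM).

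An exact permutation test over 2 mutant and 2 wild-type libraries cannot give a two-sided p below 0.333, which is the p of the pump sum, and the p of the cathepsin sum was 0.667. Single genes made up much of these sums. The most abundant cathepsin gene, ctsla, held 35.3 to 55.3% of the cathepsin sum. Sums were also taken without the most abundant member of each class (ctsla and ATP6V1G1), with ATP6V1F kept. Their 5.5 and 7.5 dpf ratios were 1.65 and 3.95 for cathepsins and 2.76 and 2.42 for the pump. With median-ratio scaling of the libraries, which lowers every mutant value relative to wild type by 0.30 at 5.5 dpf and by 0.44 at 7.5 dpf (log2), they were 1.03 and 2.13 for cathepsins and 1.84 and 1.79 for the pump. The median difference of all tested genes at 7.5 dpf was 0.33 before that scaling and 0.03 after it.

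**Figure D2:**
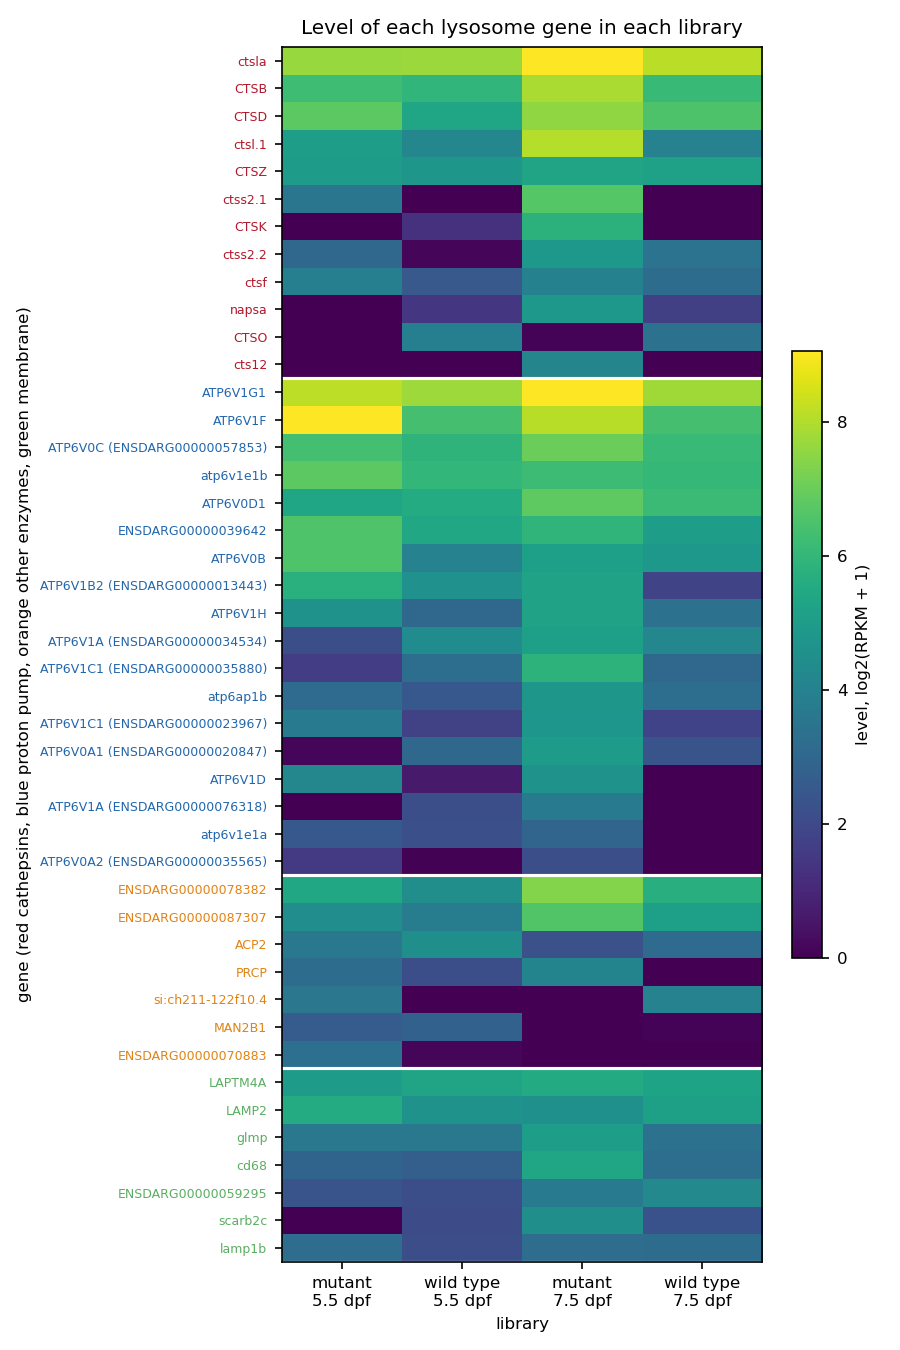
Level of the 44 members with a mean of 1 RPKM or more, as log2(RPKM + 1), with 1 row per gene and 1 column per library, ordered by class and then by mean level. The third column, the 7.5 dpf mutant library, is the brightest for most cathepsins and pump genes, and dark cells mark genes at or near 0 reads.

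Differences between 2 libraries are given below on the log2(RPKM + 1) scale, which understates the change of low genes, and a gene is called 2-fold higher or lower where this difference is at least 1 in size. Ratios in folds are of RPKM or of reads per library total, with 95% counting intervals, and where a library had 0 reads the ratio is a lower bound, computed with 3 reads in that library.

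At 5.5 dpf the mutant library held more transcript of many pump subunits, with a minority of subunits far lower. The 18 pump genes split into 8 that were 2-fold higher and 4 that were 2-fold lower in mutant than in wild-type cells. Their median difference was 0.70, and under median-ratio scaling 6 were higher and 4 lower, with a median of 0.42. Among all 11135 tested genes the higher share was 28.0% and the lower share 25.6%, and the median was 0.00. Under median-ratio scaling the shares of all tested genes were 23.6% higher and 28.7% lower. The 12 cathepsins split into 4 on the higher and 3 on the lower side, and their median of 0.23 turned to -0.02 under median-ratio scaling. In the reported setting the share of cathepsins on each side was thus close to that of all genes. The share of pump genes on the higher side was above it. Under median-ratio scaling 4 cathepsins were higher and 3 lower. The higher share was then 33.3% in both classes, so that it did not set the pump apart from cathepsins. Among the higher genes, ATP6V1D, ATP6V0A2 (ENSDARG00000035565) and ctss2.1 met the minimum only through the mutant libraries, as did 29.3% of all tested genes. On the lower side CTSO met it only through the wild-type libraries. Their place in these counts follows in part from the minimum, and the counts are a description. Over all 54 members found, without the minimum, the counts were 9 higher and 4 lower of 22 pump genes, and 4 higher and 3 lower of 15 cathepsins. The share of all genes without the minimum is not given here.

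At 7.5 dpf most cathepsins and most pump genes were higher in the mutant library. In mutant relative to wild-type cells, 12 of 18 pump genes passed the 2-fold rule upward and 0 downward, and the median difference was 1.74. Among 12 cathepsins 8 passed it upward and 1 downward, and the median was 1.57. Over the 15 cathepsins found, without the minimum, 8 were higher and 3 lower, with a median of 1.03, and over the 22 pump genes 12 were higher and 0 lower, with a median of 1.39. CTSK, napsa and cts12 among cathepsins, and ATP6V0A2 (ENSDARG00000035565) and ATP6V1A (ENSDARG00000076318) among pump genes, met the minimum only through the 7.5 dpf mutant library, as did 14.7% of all tested genes. Their place among the higher genes thus follows in part from the minimum, and the counts over tested members are a description. The shares among all tested genes were 40.0% upward and 23.1% downward, and their median was 0.33. Each of the 18 pump differences lay above 0, and under median-ratio scaling 16 did, with atp6v1e1b and ATP6V0B passing to the other side. Among all 11135 tested genes 6288 lay above 0, and 5694 did under that scaling. Counts of 2-fold higher genes under that scaling were 11 for the pump and 6 for cathepsins, against 35.2% of all tested genes. Among members with more than 3 reads in both libraries, 8 of 14 pump genes and 5 of 8 cathepsins were 2-fold higher. That read rule was met by 5871 of all tested genes, and their 2-fold share is not given here. Nor is the share of all genes without the minimum, so that 40.0% is no background for either set of counts.

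The comparisons between stages use the same 4 libraries as the mutant comparisons, so that their values are set side by side here and are no further evidence. Of 18 pump genes in wild-type cells, 0 passed the rule upward and 3 downward at 7.5 relative to 5.5 dpf, and their median was -0.02, where 21.4% of all tested genes were higher and 30.1% lower. Cathepsins had 2 higher and 1 lower of 12 in wild type, with a median of 0.22. In mutant cells 8 of 12 cathepsins were 2-fold higher at 7.5 than at 5.5 dpf and 0 were lower, with a median of 1.70. Among all tested genes 33.8% were higher and 26.2% lower. CTSK, napsa and cts12 are among the 8 and met the minimum only through the 7.5 dpf mutant library, as did 14.7% of all tested genes. Their place among the higher genes follows in part from the minimum. Of cathepsins with more than 3 reads in both libraries 5 of 8 were higher, for which no share of all genes is given. Pump genes had 7 higher and 1 lower of 18 in mutant cells between the stages, with a median of 0.64. ATP6V1A (ENSDARG00000076318), one of the 7, also met the minimum only through the 7.5 dpf mutant library. Under median-ratio scaling 6 pump genes were higher and 2 lower, where 31.7% of all tested genes were higher and 27.4% lower. The higher share of pump genes was thus near the background under that scaling.

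The abundant endolysosomal proteases were those that every library contained. The gene ctsla encodes a cathepsin L, a cysteine protease of broad specificity, and had the highest mean level of the cathepsins. It stood at 199.6 RPKM in mutant and 209 RPKM in wild-type cells at 5.5 dpf, and at 532 RPKM in mutant and 276 RPKM in wild-type cells at 7.5 dpf. The 5.5 dpf libraries were within 5% of each other for ctsla, and the 7.5 dpf mutant library was 1.93-fold higher than its wild type (95% counting interval 1.895 to 1.96). CTSB, the gene of the cysteine protease cathepsin B, was at 74.6 RPKM in mutant and 61.8 RPKM in wild-type cells at 5.5 dpf, and at 237 RPKM in mutant and 69.3 RPKM in wild-type cells at 7.5 dpf. Its mutant level was 3.43-fold higher at 7.5 dpf (3.33 to 3.53) and 1.21-fold higher at 5.5 dpf, where median-ratio scaling turned the difference to -0.03.

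CTSD, the gene of the aspartic protease cathepsin D, was the abundant cathepsin that was 2-fold higher in the mutant library at both stages. It was at 109 RPKM in mutant and 40.3 RPKM in wild-type cells at 5.5 dpf, and at 189 RPKM in mutant and 92.4 RPKM in wild-type cells at 7.5 dpf. Both mutant values lay above both wild-type values, with ratios of 2.71 (2.60 to 2.83) and 2.05 (1.99 to 2.11). Under median-ratio scaling the CTSD difference at 7.5 dpf was 0.59, which is under the 2-fold rule. Wild-type cells also held more CTSD at 7.5 than at 5.5 dpf, by 2.29-fold. CTSZ, the gene of a carboxypeptidase, was nearly level, at 30.6 RPKM in mutant and 26.7 RPKM in wild-type cells at 5.5 dpf and at 38.4 RPKM in mutant and 35.2 RPKM in wild-type cells at 7.5 dpf. The gene ctsf was at 14.1 RPKM in mutant and 4.78 RPKM in wild-type cells at 5.5 dpf, and at 14.7 RPKM in mutant and 8.11 RPKM in wild-type cells at 7.5 dpf.

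The cathepsin S genes ctss2.1 and ctss2.2 had their highest levels in the 7.5 dpf mutant library. Another gene described as cathepsin S, ctss1, lay under the minimum and had reads only in the 7.5 dpf wild-type library, at 1.52 RPKM. The gene ctss2.1 encodes a cathepsin S, a cysteine protease that in mammals processes the invariant chain in antigen-presenting cells. It was at 10.7 RPKM in mutant and 0 RPKM in wild-type cells at 5.5 dpf, and at 101 RPKM in mutant and 0.0191 RPKM (1 read) in wild-type cells at 7.5 dpf. Both wild-type libraries were at or near 0, and both mutant libraries were above them, at least 181-fold at 5.5 dpf and 5283-fold at 7.5 dpf (counting interval 948 to 208700). A second cathepsin S gene, ctss2.2, was at 7.42 RPKM in mutant and 0.0962 RPKM in wild-type cells at 5.5 dpf, and at 27.3 RPKM in mutant and 9.91 RPKM in wild-type cells at 7.5 dpf. The genes ctss2.1 and ctss2.2 may share reads, which leaves the value of each uncertain.

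The cathepsin L-like gene ctsl.1 also had its highest value in that library. It was at 31.7 RPKM in mutant and 17.5 RPKM in wild-type cells at 5.5 dpf, and at 266 RPKM in mutant and 15.1 RPKM in wild-type cells at 7.5 dpf. The 7.5 dpf mutant level was 17.7-fold above wild type (16.5 to 18.9). CTSK encodes cathepsin K, a collagen-degrading protease best known from osteoclasts, and was at 0 RPKM in mutant and 1.46 RPKM in wild-type cells at 5.5 dpf. At 7.5 dpf CTSK was at 55.6 RPKM in mutant and 0 RPKM in wild-type cells, at least 1124-fold higher. Of the remaining cathepsins, cts12 had reads only in the 7.5 dpf mutant library, at 16.5 RPKM, so that it met the minimum through that library alone. The gene napsa, whose symbol is that of the aspartic protease napsin A and whose deposited description is cathepsin D, was at 0 RPKM in mutant and 1.69 RPKM in wild-type cells at 5.5 dpf, and at 27.3 RPKM in mutant and 2.27 RPKM in wild-type cells at 7.5 dpf.

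CTSO, which encodes the cysteine protease cathepsin O, was the single tested cathepsin that was 2-fold lower in the mutant library at both stages. It was at 0 RPKM in mutant and 14.1 RPKM in wild-type cells at 5.5 dpf, and at 0.0671 RPKM (2 reads) in mutant and 9.63 RPKM in wild-type cells at 7.5 dpf. Both mutant libraries were at or near 0 and both wild-type libraries were not, and CTSO was the single one of the 44 tested members with both mutant libraries below both wild-type libraries, an order found in 13.0% of all tested genes. CTSO met the minimum only through the wild-type libraries. Among members under the minimum, the second ATP6V0C gene (ENSDARG00000036577) had the same order, at 0 RPKM in both mutant libraries, against 0.953 RPKM in wild-type cells at 5.5 dpf and 0.725 RPKM at 7.5 dpf. The 3 cathepsin genes under the minimum, zgc:174153, ctss1 and ENSDARG00000067570, had reads in 1 wild-type library each and 0 reads in the others.

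CTSH encodes cathepsin H, an aminopeptidase. Its deposited description begins with "Pro-cathepsin", so that it is no member by the rule and enters no count above. It was at 0 RPKM in mutant and 4.75 RPKM in wild-type cells at 5.5 dpf, and at 135 RPKM in mutant and 0 RPKM in wild-type cells at 7.5 dpf. The order of the genotypes thus turned between the stages, as for CTSK and napsa.

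In the V1 sector, 5 of 11 genes were 2-fold higher in mutant cells at 5.5 dpf and 9 of 11 at 7.5 dpf, where 28.0% and 40.0% of all tested genes were higher. The median differences were 0.75 and 2.81. Under median-ratio scaling the counts were 4 and 8, against 23.6% and 35.2%. ATP6V1D, atp6v1e1a and ATP6V1A (ENSDARG00000076318) met the minimum only through the mutant libraries. All are among the 9, and ATP6V1D is among the 5, so that these counts follow in part from the minimum and are a description. ATP6V1F, the gene of the small central stalk subunit F, was at 534 RPKM in mutant and 83.4 RPKM in wild-type cells at 5.5 dpf, and at 270.2 RPKM in mutant and 82.98 RPKM in wild-type cells at 7.5 dpf. The wild-type libraries were nearly equal for ATP6V1F, and both mutant libraries were above them, 6.40-fold (6.15 to 6.66) and 3.26-fold (3.12 to 3.40). ATP6V1F held 39.1% of the pump sum in the 5.5 dpf mutant library and 13.9% in its wild type. ATP6V1G1, for the peripheral stalk subunit G, was the pump gene with the highest mean, at 288 RPKM in mutant and 210.2 RPKM in wild-type cells at 5.5 dpf and at 526 RPKM in mutant and 219 RPKM in wild-type cells at 7.5 dpf. For ATP6V1G1 too the wild-type libraries were close to each other, with ratios of mutant to wild type of 1.37 and 2.40.

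The genes of subunits H, D and B2 were also higher in both mutant libraries. ATP6V1H, for a regulatory subunit, was at 24.1 RPKM in mutant and 7.18 RPKM in wild-type cells at 5.5 dpf, and at 36.4 RPKM in mutant and 9.77 RPKM in wild-type cells at 7.5 dpf. ATP6V1D, for the central rotor, was at 17.3 RPKM in mutant and 0.561 RPKM in wild-type cells at 5.5 dpf, and at 23.4 RPKM in mutant and 0 RPKM in wild-type cells at 7.5 dpf. ATP6V1B2 (ENSDARG00000013443), for an ATP-binding subunit, was at 52.7 RPKM in mutant and 22.9 RPKM in wild-type cells at 5.5 dpf, and at 35.9 RPKM in mutant and 2.63 RPKM in wild-type cells at 7.5 dpf. For each of these 3 genes both mutant libraries lay above both wild-type libraries, an order found in 22.8% of all tested genes. ATP6V1D met the minimum only through the mutant libraries. For ATP6V1B2 the wider gap at 7.5 dpf went with a wild-type level that was 8.71-fold lower at 7.5 than at 5.5 dpf, while its mutant level was 1.47-fold lower.

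The catalytic subunit A went the other way at the early stage. ATP6V1A (ENSDARG00000034534) was at 3.51 RPKM in mutant and 20.3 RPKM in wild-type cells at 5.5 dpf, 5.78-fold lower (5.15 to 6.52). At 7.5 dpf it was at 33.9 RPKM in mutant and 17.4 RPKM in wild-type cells, 1.95-fold higher (1.83 to 2.07). The other ATP6V1A gene (ENSDARG00000076318) had the same order, at 0 RPKM in mutant and 3.48 RPKM in wild-type cells at 5.5 dpf and at 12.2 RPKM in mutant and 0 RPKM in wild-type cells at 7.5 dpf. The levels of both catalytic subunit genes were thus low in the 5.5 dpf mutant library, the library in which ATP6V1F was highest.

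The 2 genes of subunit C, which joins the sectors, differed from each other at 5.5 dpf. ATP6V1C1 (ENSDARG00000023967) was at 12.02 RPKM in mutant and 2.35 RPKM in wild-type cells at 5.5 dpf, and at 26.1 RPKM in mutant and 2.502 RPKM in wild-type cells at 7.5 dpf. ATP6V1C1 (ENSDARG00000035880) was at 2.097 RPKM in mutant and 8.60 RPKM in wild-type cells at 5.5 dpf, and at 57.0 RPKM in mutant and 7.25 RPKM in wild-type cells at 7.5 dpf. At 5.5 dpf the first was 5.11-fold higher and the second 4.099-fold lower in the mutant library, and at 7.5 dpf both were higher. Reads shared between the copies of a subunit leave the split uncertain. For subunit E, atp6v1e1b was within 2-fold at both stages (1.69-fold and 1.14-fold higher), and atp6v1e1a was at 6.68 RPKM in mutant and 0 RPKM in wild-type cells at 7.5 dpf, with 4.63 RPKM in mutant and 3.61 RPKM in wild-type cells at 5.5 dpf.

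In the V0 sector, 3 of 6 genes were 2-fold higher in mutant cells at 5.5 dpf and 2 of 6 at 7.5 dpf, with median differences of 0.83 and 0.88. Among all tested genes these shares were 28.0% and 40.0%, so that the V0 count at 7.5 dpf was not above the background. ATP6V0A2 (ENSDARG00000035565), which met the minimum only through the mutant libraries, is in both V0 counts. ATP6V0C (ENSDARG00000057853), for the proteolipid of the proton-carrying ring, was within 2-fold at both stages, at 81.8 RPKM in mutant and 58.1 RPKM in wild-type cells at 5.5 dpf and at 129.5 RPKM in mutant and 68.1 RPKM in wild-type cells at 7.5 dpf. ATP6V0B, for a second ring proteolipid, was at 92.7 RPKM in mutant and 15.0 RPKM in wild-type cells at 5.5 dpf, 6.17-fold higher (5.79 to 6.595). At 7.5 dpf ATP6V0B was at 33.7 RPKM in mutant and 27.7 RPKM in wild-type cells, a difference of 0.28 that was -0.15 under median-ratio scaling. Subunit d, encoded by ATP6V0D1, differed by less than 2-fold at each stage, and the subunit e 1 gene ENSDARG00000039642 was at 93.3 RPKM in mutant and 40.8 RPKM in wild-type cells at 5.5 dpf and at 59.9 RPKM in mutant and 32.85 RPKM in wild-type cells at 7.5 dpf.

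Subunit a of the V0 sector, which anchors the pump in a given membrane, had the widest turn between the stages among pump genes other than subunit A. ATP6V0A1 (ENSDARG00000020847) was at 0.124 RPKM in mutant and 7.34 RPKM in wild-type cells at 5.5 dpf, 59.3-fold lower (36.3 to 104). At 7.5 dpf it was at 30.2 RPKM in mutant and 4.17 RPKM in wild-type cells, 7.25-fold higher (6.62 to 7.96). ATP6V0A2 (ENSDARG00000035565) was low, at 1.92 RPKM in mutant and 0.026 RPKM in wild-type cells at 5.5 dpf and at 3.47 RPKM in mutant and 0 RPKM in wild-type cells at 7.5 dpf. Of 4 pump genes under the minimum, the subunit a genes TCIRG1 and ENSDARG00000076003 and the second ATP6V0C gene (ENSDARG00000036577) stayed below 1 RPKM in each library, and atpv0e2 reached 3.05 RPKM in the 5.5 dpf mutant library.

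The accessory subunit gene atp6ap1b was at 7.99 RPKM in mutant and 4.69 RPKM in wild-type cells at 5.5 dpf, and at 26.9 RPKM in mutant and 8.75 RPKM in wild-type cells at 7.5 dpf. ATP6AP2, for a second accessory protein of the pump, carries another description and is no member by the rule. It was at 29.8 RPKM in mutant and 10.9 RPKM in wild-type cells at 5.5 dpf, and at 68.5 RPKM in mutant and 4.30 RPKM in wild-type cells at 7.5 dpf. Both accessory genes were higher in the mutant library at both stages, ATP6AP2 by 2.73-fold and 15.9-fold.

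**Figure D3:**
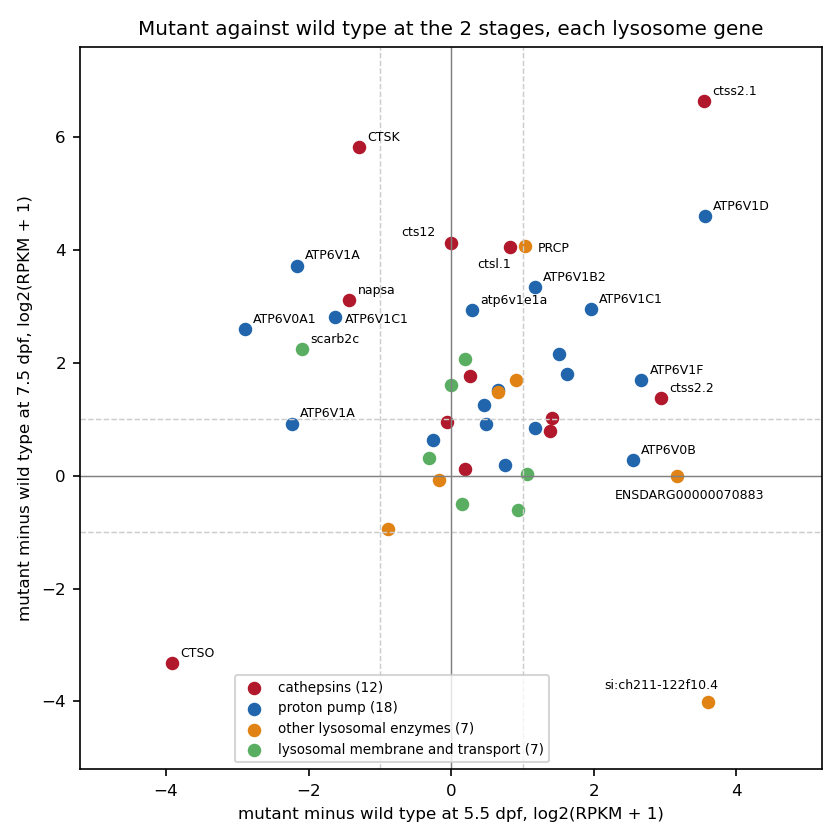
Difference between mutant and wild type at 5.5 dpf (x axis) and at 7.5 dpf (y axis) in log2(RPKM + 1), with 1 point per gene, colours for the 4 classes and dashed lines at the 2-fold rule. The pump genes all lie above 0 on the y axis (16 of 18 under median-ratio scaling). Of all 11135 tested genes, which are not drawn, 6288 have a 7.5 dpf difference above 0 (5694 under that scaling). CTSO lies low on both axes. CTSK, napsa, scarb2c and 3 labelled pump genes lie 2-fold lower at 5.5 dpf and 2-fold higher at 7.5 dpf.

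The mutant comparisons at the 2 stages share no library, so that they can be set against each other. Of 18 pump genes, 6 were 2-fold higher in the mutant at both stages and 0 were 2-fold lower at both, against 12.1% and 7.73% of all tested genes. Those counts were 3 and 1 for the 12 cathepsins (CTSD, ctss2.1 and ctss2.2 higher, CTSO lower). Differences above 0 at both stages were found for 13 of 18 pump genes and 7 of 12 cathepsins, against 29.8% of all tested genes. Under median-ratio scaling these were 11 and 5, and those 2-fold higher at both stages were 5 pump genes and 1 cathepsin, where all tested genes had shares of 24.5% and 8.68%. The share of cathepsins 2-fold higher at both stages was thus at the background under that scaling. Both mutant libraries lay above both wild-type libraries for 12 of 18 pump genes and 5 of 12 cathepsins, against 22.8% of all tested genes. The 5 cathepsins were CTSB, CTSD, ctsl.1, ctss2.1 and ctsf. Of these genes, ATP6V1D, atp6v1e1a, ATP6V0A2 (ENSDARG00000035565) and ctss2.1 met the minimum only through the mutant libraries, as did 29.3% of all tested genes. ATP6V1D, ATP6V0A2 and ctss2.1 are also among those 2-fold higher at both stages. Their place in these counts thus follows in part from the minimum, and the counts are a description. A turn from 2-fold lower at 5.5 dpf to 2-fold higher at 7.5 dpf was found for 3 pump genes and 2 cathepsins, against 8.41% of all tested genes.

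Taking the stages as a term beside genotype, limma on log2(RPKM + 1) over all 11135 tested genes called 2 of the 44 members, with a Benjamini-Hochberg adjusted p under 0.05 for 2.19% of all tested genes. ATP6V1F rose by 2.18 ± 0.53 (SE) in mutant over wild-type cells with an adjusted p of 0.00513 in limma, higher in 2 of 2 stages. The gene ctss2.1 rose by 5.09 ± 1.497 (SE) with an adjusted p of 0.0343 in limma, also higher in 2 of 2 stages. Since ctss2.1 met the minimum only through the mutant libraries, in which it is high, its test is not independent of that choice. At an unadjusted p under 0.05 limma had 5 members higher and 1 lower, which is 6 of 44, near the 10.8% of all tested genes at that p. These were ATP6V1F, ctss2.1, ctsl.1, ATP6V1D and ATP6V1B2 (ENSDARG00000013443) on the higher side and CTSO on the lower. The fit has 1 residual degree of freedom per gene, which holds the change of the genotype difference between stages, and its spread came in full from the trend over all genes. Neither call held with a pseudocount of 0.1, and edgeR's quasi-likelihood test on recovered reads called 0 genes of 11135 (113 higher and 229 lower at an unadjusted p under 0.05, of which 2 on the higher side were members). DESeq2 on the same reads called 2 members, ctss2.1 (adjusted p 6.98e-06) and ATP6V1D (adjusted p 0.0142), where it called 7.01% of all tested genes, a larger share than 2 of 44. ATP6V1D too met the minimum only through the mutant libraries. ATP6V1F had an adjusted p of 0.113 in DESeq2.

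Among the other lysosomal enzymes, those described as lysosomal protective protein, the carboxypeptidase also known as cathepsin A, were the most abundant. ENSDARG00000078382 was at 40.7 RPKM in mutant and 21.3 RPKM in wild-type cells at 5.5 dpf, and at 167 RPKM in mutant and 50.4 RPKM in wild-type cells at 7.5 dpf. ENSDARG00000087307 was at 21.0 RPKM in mutant and 13.0 RPKM in wild-type cells at 5.5 dpf, and at 95.6 RPKM in mutant and 33.7 RPKM in wild-type cells at 7.5 dpf. Their profiles were alike, higher in mutant at each stage and higher at 7.5 than at 5.5 dpf in each genotype. How the authors assigned reads shared by the 2 genes is unknown, which leaves each value uncertain. The third such gene, si:ch211-122f10.4, alternated between presence and absence, at 11.2 RPKM in mutant and 0 RPKM in wild-type cells at 5.5 dpf and at 0 RPKM in mutant and 15.1 RPKM in wild-type cells at 7.5 dpf. A 2-fold difference at both stages in opposite directions, in either order, was found in 12.5% of all tested genes, and 7 of the 44 members had one.

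PRCP, the gene of a lysosomal prolyl carboxypeptidase, was at 8.32 RPKM in mutant and 3.56 RPKM in wild-type cells at 5.5 dpf, and at 15.9 RPKM in mutant and 0 RPKM in wild-type cells at 7.5 dpf. ACP2, for lysosomal acid phosphatase, was lower in mutant at both stages by less than the 2-fold rule, at 11.3 RPKM in mutant and 21.7 RPKM in wild-type cells at 5.5 dpf and at 3.72 RPKM in mutant and 8.04 RPKM in wild-type cells at 7.5 dpf. MAN2B1, for lysosomal alpha-mannosidase, differed by stage and not by genotype under the 2-fold rule, with 0.00966 RPKM (1 read) in mutant and 0.0619 RPKM (8 reads) in wild-type cells at 7.5 dpf, and 5.25 RPKM in mutant and 6.05 RPKM in wild-type cells at 5.5 dpf. Under median-ratio scaling ACP2 did pass the rule, with differences of -1.17 at 5.5 dpf and -1.27 at 7.5 dpf. The PPT2-A thioesterase gene ENSDARG00000070883 had 8.82 RPKM in the 5.5 dpf mutant library and met the minimum through that library alone, and the alpha-glucosidase gene gaa2 lay under the minimum.

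Genes of structural proteins of the lysosomal membrane stood as follows. LAMP2, for a highly glycosylated protein of the membrane, was at 47.2 RPKM in mutant and 24.1 RPKM in wild-type cells at 5.5 dpf, and at 22.5 RPKM in mutant and 34.7 RPKM in wild-type cells at 7.5 dpf. The gene lamp1b, of the same family, was at 8.44 RPKM in mutant and 3.54 RPKM in wild-type cells at 5.5 dpf, and at 8.52 RPKM in mutant and 8.28 RPKM in wild-type cells at 7.5 dpf. LAPTM4A, for a membrane protein with several spans, stayed between 30.6 and 45.9 RPKM in the 4 libraries. At 7.5 dpf, when cathepsins and pump genes were higher in the mutant library, LAMP2 was 1.54-fold lower (1.465 to 1.63), which passed the 2-fold rule under median-ratio scaling (-1.02), and lamp1b and LAPTM4A were within 2-fold.

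Of the 7 tested lysosomal membrane and transport genes, 1 was 2-fold higher in mutant cells at 5.5 dpf and 3 at 7.5 dpf. Among all tested genes these shares were 28.0% and 40.0%, so that the count at 7.5 dpf was near the background. The 3 genes were glmp, scarb2c and cd68. The gene glmp encodes a glycosylated lysosomal membrane protein and was at 11.4 RPKM in both genotypes at 5.5 dpf, and at 31.9 RPKM in mutant and 9.73 RPKM in wild-type cells at 7.5 dpf. The gene scarb2c, of the family of the lysosomal receptor LIMP-2, was at 0 RPKM in mutant and 3.29 RPKM in wild-type cells at 5.5 dpf, and at 21.8 RPKM in mutant and 3.82 RPKM in wild-type cells at 7.5 dpf. ENSDARG00000059295, with the same description as scarb2c, was at 4.06 RPKM in mutant and 3.55 RPKM in wild-type cells at 5.5 dpf, and at 12.6 RPKM in mutant and 18.3 RPKM in wild-type cells at 7.5 dpf. The gene with the symbol cd68, in mammals a macrophage marker, is described in the deposited tables as lysosome-associated membrane glycoprotein. It was at 6.56 RPKM in mutant and 5.63 RPKM in wild-type cells at 5.5 dpf, and at 39.3 RPKM in mutant and 8.56 RPKM in wild-type cells at 7.5 dpf.

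Markers of leukocytes were high in the same library as the cathepsins. The 14 macrophage genes matched, of 9 symbols, summed to 18.7 RPKM in mutant and 4.48 RPKM in wild-type cells at 5.5 dpf. At 7.5 dpf they summed to 186 RPKM in mutant and 1.64 RPKM in wild-type cells. Several of the 14 share the symbol MFAP4. One of these, MFAP4 (ENSDARG00000090557), was at 18.4 RPKM in mutant and 4.48 RPKM in wild-type cells at 5.5 dpf. It made up most of the mutant sum and the whole wild-type sum at that stage. In that list the scavenger receptor gene marco was at 58.15 RPKM, lgals9l1 at 35.6 RPKM and the leukocyte actin-bundling gene LCP1 at 26.7 RPKM in the 7.5 dpf mutant library, and all were at 0 in the others. The leukocyte surface gene ptprc was at 0 in each library, and 3 of the 14 were at 0 in the 7.5 dpf mutant library. The 7 neutrophil genes matched summed to 35.1 RPKM in mutant and 12.8 RPKM in wild-type cells at 5.5 dpf, and to 248 RPKM in mutant and 3.31 RPKM in wild-type cells at 7.5 dpf, while npsn was at 0 in each library and the lysozyme gene lyz at 0 in both mutant libraries. The part of leukocytes in the cathepsin and pump values was not tested, and in sorted bulk cells a change in the number of cells of a type and a change in RNA per cell cannot be told apart.

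**Figure D4:**
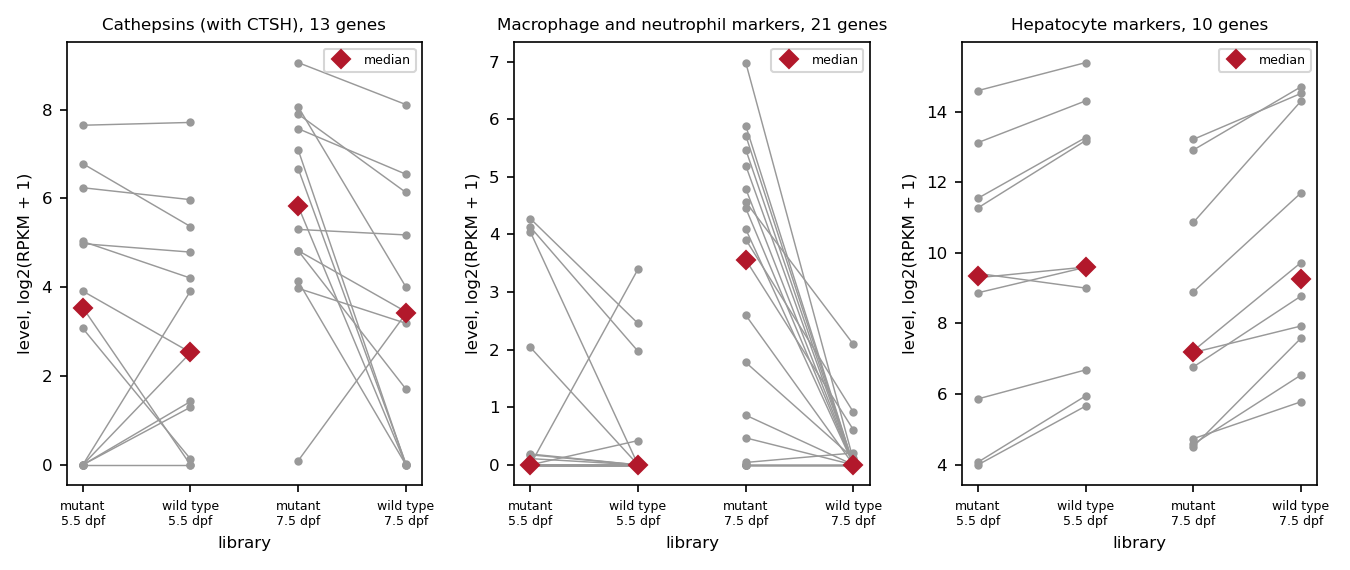
Level in log2(RPKM + 1) of the 12 cathepsins with a mean of 1 RPKM or more and CTSH (left), of the macrophage and neutrophil markers matched (middle) and of the 10 hepatocyte markers (right), by library. Grey points are genes, joined between mutant and wild type of a stage, and red diamonds are medians. The markers of leukocytes stand high in the 7.5 dpf mutant library, where hepatocyte markers stand lower than in wild type.

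Markers of other cells that are rich in proton pumps or cathepsins were measured too. The 6 genes matched for ionocytes with abundant proton pumps summed to 26.4 RPKM in mutant and 59.0 RPKM in wild-type cells at 5.5 dpf, and to 91.0 RPKM in mutant and 74.7 RPKM in wild-type cells at 7.5 dpf. The order of the genotypes differed between these genes at both stages. At 5.5 dpf ca15a was at 20.1 RPKM in mutant and 7.69 RPKM in wild-type cells, and foxi3a at 0.968 and 0.507 RPKM. On the other side foxi3b was at 0 and 21.6 RPKM, ca2 at 5.32 and 20.7 RPKM, and GCM2 at 0 and 8.49 RPKM. The gene slc9a3.2 was at or near 0 in both. The part of ionocytes in the pump values was not tested. Of the 2 osteoclast genes matched, CTSK is a member and CALCR was at 0 in each library. The 8 genes matched for intestine and its cells with large lysosomes summed to 1238 RPKM in mutant and 2371 RPKM in wild-type cells at 5.5 dpf, and to 595 RPKM in mutant and 1350 RPKM in wild-type cells at 7.5 dpf. Most of that sum was apoa4b.1, at 582 RPKM in mutant and 1307 RPKM in wild-type cells at 7.5 dpf, where FABP2 was at 9.84 RPKM in mutant and 42.1 RPKM in wild-type cells. FABP6 was at 0 in each library, and both DAB2 genes stayed below 2 RPKM. Of the receptor genes in that list, amn was at 0 in each library. The gene lrp2b was at 0.00193 RPKM in the 5.5 dpf mutant library and 0 in the others, and CUBN at 1.67 RPKM in the 7.5 dpf mutant library and 0 in the others. The exocrine pancreas list, 10 genes of digestive enzymes, summed to 45.5 RPKM in mutant and 459.5 RPKM in wild-type cells at 5.5 dpf, and to 507 RPKM in mutant and 1909 RPKM in wild-type cells at 7.5 dpf. Erythroid genes summed to 19.1 RPKM in mutant and 12.02 RPKM in wild-type cells at 5.5 dpf and to 40.1 RPKM in mutant and 0.427 RPKM in wild-type cells at 7.5 dpf, and the 4 endothelial genes were below 1 RPKM in sum in each library.

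Other genes of the lysosome, which carry different descriptions, were counted by list, beside 28.0% higher and 25.6% lower among all tested genes at 5.5 dpf and 40.0% higher and 23.1% lower at 7.5 dpf. Of 27 tested soluble hydrolases and activators, 6 were 2-fold higher and 6 lower in mutant cells at 5.5 dpf, and 10 higher and 8 lower at 7.5 dpf, with medians of 0.09 and 0.00. The higher shares of this list were thus not above the background at either stage. At 7.5 dpf the highest were GM2A, for the activator of ganglioside breakdown, at 51.3 RPKM in mutant and 0 RPKM in wild-type cells, and TPP1, for a tripeptidyl peptidase, at 43.0 RPKM in mutant and 0 RPKM in wild-type cells. HEXA, for a hexosaminidase subunit, was the lowest at both stages, at 0.316 RPKM in mutant and 9.91 RPKM in wild-type cells at 5.5 dpf and at 0.0968 RPKM in mutant and 11.1 RPKM in wild-type cells at 7.5 dpf. Of 12 tested genes of membrane and transport proteins outside the rule, 4 were higher and 3 lower at 5.5 dpf, and 8 higher and 3 lower at 7.5 dpf, with medians of 0.02 and 2.08. Among them cln3 was at 36.8 RPKM in mutant and 0 RPKM in wild-type cells at 7.5 dpf, and the cholesterol exporter gene NPC1 at 9.89 RPKM in mutant and 30.2 RPKM in wild-type cells.

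The counts of sorting, autophagy and nutrient-sensing genes are read against the same background. Of 8 tested genes of mannose 6-phosphate sorting, which carries enzymes to lysosomes, 2 were higher and 4 lower at 5.5 dpf and 2 higher and 3 lower at 7.5 dpf. GNPTAB, for the enzyme that makes the sorting tag, was at 9.55 RPKM in mutant and 2.86 RPKM in wild-type cells at 5.5 dpf, and at 0 RPKM in mutant and 11.7 RPKM in wild-type cells at 7.5 dpf. The adaptor gene GGA1 was at 0.788 RPKM in mutant and 12.1 RPKM in wild-type cells at 5.5 dpf, and at 0.672 RPKM in mutant and 15.3 RPKM in wild-type cells at 7.5 dpf. Of 22 tested autophagy genes, 5 were higher and 8 lower at 5.5 dpf and 8 higher and 4 lower at 7.5 dpf, with ATG5 at 44.0 RPKM in mutant and 0 RPKM in wild-type cells at 7.5 dpf and ATG13 at 4.20 RPKM in mutant and 54.2 RPKM in wild-type cells at 5.5 dpf. Of 7 tested genes of the Ragulator, Rag and TFE group, which senses nutrients at the lysosome and controls its genes, 2 were higher and 2 lower at 5.5 dpf and 3 higher and 1 lower at 7.5 dpf. Of 3 tested cystatins, which inhibit cathepsins, 1 was 2-fold higher at 7.5 dpf and 0 at 5.5 dpf.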

How the data were processed

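Hepatocytes were sequenced in 4 libraries, 1 per genotype and stage, and grouped by title. The tools named in the submitters' processing notes are TopHat2 2.0.12 and Bowtie2 2.2.3 together with DESeq 1.16.0 and HTSeq 0.6.0; the notes state neither role nor order. Build, annotation and strand setting: not given in the sources used here. The authors deposited RPKM for 33737 genes, and 4 comparison tables with CPM, a fold change (ratio), its log2, a p-value and an adjusted p-value. The CPM that the authors deposited gave whole reads for 100% of listed values above 0 (tolerance 0.01), and 1502 of 44540 values of tested genes, 2 of them of members, were filled from the RPKM. Symbols matched 47 of 54 members. No sequence of these genes was used here.

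Differences were of log2(RPKM + 1) with a minimum mean RPKM of 1 and a 2-fold rule. Folds carry exact 95% counting intervals. Genotype over both stages was tested with limma 3.58.1, with edgeR 4.0.16 and DESeq2 1.42.0 on recovered reads as alternatives. Each was also run on simulated reads with known changes, the same at both stages. The simulated dispersion (spread between libraries) was far under the common dispersion of 2.77 that edgeR estimated here. That run checks the code and gives no error rate for these data. The named genes were the 8 highest by mean RPKM in each class and the 4 highest and 4 lowest differences per stage, with ctss2.1 and CTSH. ATP6V1H, both ATP6V1C1 genes, the remaining members and ATP6AP2 were added after their values were seen. Members and gene lists were chosen with earlier results of these data known.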

Additional observations from a re-analysis of the deposited data

Results flagged for a closer look

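With 1 library per group, no library was tested as standing apart from others of its group. The members below were 2-fold lower in mutant than in wild-type cells at one stage and 2-fold higher at the other, and the difference between the stages was not tested. The values are the mutant minus wild-type difference at 7.5 dpf less that at 5.5 dpf, on the log2(RPKM + 1) scale. Among cathepsins this was 7.12 for CTSK and 4.54 for napsa. Among pump genes it was 5.89 for ATP6V1A (ENSDARG00000076318), 5.49 for ATP6V0A1 (ENSDARG00000020847) and 4.44 for ATP6V1C1 (ENSDARG00000035880). In the membrane class it was 4.34 for scarb2c. In the opposite direction, higher at 5.5 dpf and lower at 7.5 dpf, it was -7.61 for si:ch211-122f10.4. For each of these 7 genes except ATP6V1C1 (ENSDARG00000035880) and ATP6V0A1 (ENSDARG00000020847), at least 1 mutant library had 0 reads.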

How the results depend on the processing

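No paired analysis was possible because the labels give no replicate numbers and each group has 1 library, and leaving out a library leaves no comparison at its stage. Counts of 2-fold genes depended on the setting as follows, in mutant minus wild type unless the stages are named. The 2-fold shares of all tested genes given above belong to the reported setting and to median-ratio scaling only. With a pseudocount of 5 rather than 1, 1 cathepsin and 2 pump genes were lower at 5.5 dpf, and between stages in wild type 0 cathepsins and 1 pump gene were lower. With no minimum, 3 cathepsins were lower at 7.5 dpf, 4 were higher between stages in wild type, and 2 pump genes were lower between stages in the mutant. With a mean RPKM of 10 or more, 1 cathepsin was lower at 5.5 dpf and 0 at 7.5 dpf, and 1 pump gene was lower between stages in wild type, where the pump median turned to 0.00776. Keeping only members above 3 reads in each of the 2 libraries, 0 cathepsins were lower at 5.5 and at 7.5 dpf, 5 were higher at 7.5 dpf and 5 between stages in the mutant, and in wild type between stages 0 cathepsins and 1 pump gene were lower and the pump median was 0.0329. Median-ratio scaling turned the cathepsin median at 5.5 dpf to -0.0158 and left 2 pump genes lower between stages in the mutant. The ratios of sums under that scaling were 1.03 and 2.13 for cathepsins and 1.84 and 1.79 for the pump at 5.5 and 7.5 dpf. Without the most abundant member of each class, cathepsins over pump stood at 0.258 in mutant and 0.432 in wild-type cells at 5.5 dpf and at 0.616 in wild-type cells at 7.5 dpf, and the ratios of sums were 1.65 and 3.95 for cathepsins and 2.76 for the pump at 5.5 dpf. For genotype over both stages, members called higher numbered 0 with a pseudocount of 0.1, 1 with no minimum, 0 with a mean RPKM of 10 or more and 0 by edgeR, against 2 by limma as reported. The causes were not tested. Of 204 alternative values, 131 stayed close to the reported ones, 70 moved and 3 turned in sign. With 1 library per group, depth limits only the counting error.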
